A study of Mus musculus with 2 samples.

Results

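Alpha and beta tubulins were examined in ribosome profiling libraries of mouse spinal cord, as a fixed list of 10 isotype genes among the 12530 mouse genes of the tables. Members were picked by Ensembl identifier. The 7 beta tubulins are Tubb3 (ENSMUSG00000062380), Tubb4a (ENSMUSG00000062591), Tubb2a (ENSMUSG00000058672), Tubb2b (ENSMUSG00000045136), Tubb5 (ENSMUSG00000001525), Tubb4b (ENSMUSG00000036752) and Tubb6 (ENSMUSG00000001473). The 3 alpha tubulins are Tuba1a (ENSMUSG00000072235), Tuba1b (ENSMUSG00000023004) and Tuba4a (ENSMUSG00000026202). Each of the 10 was listed in both libraries. One library came from mice heterozygous for the C201R allele of Gars, the gene of glycyl-tRNA synthetase (genotype GarsC201R/+), and the other from wild-type mice. Each was made from the pooled spinal cord lysates of 3 mice, so there was 1 library per genotype, and the labels used here state no age, sex or strain. The tissue was the whole spinal cord, in which more cells of a type and more footprints per cell cannot be told apart.

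Microtubules are hollow polymers of alpha-beta tubulin dimers and serve as the tracks of axonal transport and as the frame of axons and of oligodendrocyte processes. Mammals carry several genes for each subunit, whose products are nearly identical along most of their length and differ mainly in the acidic tail at the end of the protein, where motors and modifying enzymes act. The supply of tubulin is also set at the ribosome, because free tubulin dimers trigger the decay of tubulin mRNAs while these are being translated, through the first residues of the nascent chain. In ribosome profiling, RNA fragments shielded by ribosomes are sequenced, so the reads of a gene follow both its mRNA amount and how densely ribosomes occupy it. The series used here holds no RNA library that would separate these.

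The heterozygous library held 3491159 gene reads, against 7770935 in the wild-type library, a 2.23-fold lower depth. Ratios between the libraries were computed from reads scaled with TMM, a scaling that assumes most genes to be equal, and their intervals are exact 95% binomial intervals for counting error only. A single library stands for each genotype, so the ratios have no replicate check and no p-value, and they compare these 2 libraries rather than the genotypes. Directions are relative to the gene reads. The reference table pairs 0 of the file's identifiers with symbols, so the symbols used here are those that came with the list, and chaperonins, microtubule-associated proteins, tubulin-modifying enzymes and the cell type markers of spinal cord were not analysed here.

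Some isotypes lie side by side in the genome. In RefSeq's annotation of GRCm38.p6, where the genes were found by symbol and which is the build of the submitters' processing notes, Tuba1b (chr15:98931429-98934390) and Tuba1a (chr15:98949847-98953501) are separated by 15456 nt. Tubb2a (chr13:34074278-34078008) and Tubb2b (chr13:34127008-34130354) are separated by 48999 nt. The other isotypes include Tubb4a at chr17:57080061-57087600, Tubb5 at chr17:35833920-35838301, Tubb3 at chr8:123411553-123422015, Tubb4b at chr2:25222158-25224702 and Tuba4a at chr1:75214972-75221261. The members of each of the 2 neighbouring pairs encode nearly the same protein, and reads that match both copies may have been shared, assigned to 1 or dropped. The labels used here do not say which was done. The same annotation holds 2 pseudogenes that carry the name of Tubb4b, 2 that carry that of Tubb2a and 1 that carries that of Tubb3. For the results below, a gene's own reads cannot be separated from those of its near-identical copies.

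Although the coding sequences are alike, the stretches before the annotated starts differ. The 100 bases before the RefSeq start are shown for the most abundant isotypes, Tubb4a and Tubb3, and for the neighbours Tuba1a and Tuba1b, whose read ratios between the libraries differed. They are written from 5′ to 3′ on the strand of the gene, and capitals mark 3 motifs found on either strand, namely TATAA (the core of the TATA box), CCAAT (the binding motif of NF-Y) and GGGCGG (the GC box).
Tubb4a, chr17:57087601-57087700, minus strand: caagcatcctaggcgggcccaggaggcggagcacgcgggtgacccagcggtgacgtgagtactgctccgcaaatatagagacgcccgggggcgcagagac
Tubb3, chr8:123411453-123411552, plus strand: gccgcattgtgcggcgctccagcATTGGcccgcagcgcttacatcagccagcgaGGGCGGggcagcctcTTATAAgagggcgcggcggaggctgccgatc
Tuba1a, chr15:98953502-98953601, minus strand: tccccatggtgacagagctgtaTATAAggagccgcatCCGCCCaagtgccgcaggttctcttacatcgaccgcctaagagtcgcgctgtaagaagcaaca
Tuba1b, chr15:98934391-98934490, minus strand: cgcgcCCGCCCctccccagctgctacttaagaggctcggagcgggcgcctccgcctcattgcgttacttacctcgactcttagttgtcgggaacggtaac
Such a window was searched for 8 of the 10 isotypes, and Tubb2b and Tubb6 were not among them. TATAA was present in 3 of them (Tubb3, Tubb2a and Tuba1a), against 10.2% of all 32851 RefSeq windows of the same length. CCAAT was present in 3 (Tubb3, Tubb5 and Tubb4b), against 18.9% of all windows, and GGGCGG in 5 (Tubb3, Tubb2a, Tuba1a, Tuba1b and Tuba4a), against 24.7%. In Tubb3 the matches to TATAA on the 2 strands overlap in a single stretch that begins 31 bases before the start. The match in Tubb2a begins 29 bases before the start, and that in Tuba1a lies farther off, 78 bases before it. The Tubb4a window held none of the 3 motifs. These are matches of letters, and none of them is a measured binding site. Whether the windows bear on the read ratios between the libraries was not tested.

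Together the 10 isotypes took 24165 reads, or 0.692% of the gene reads, in the heterozygous library and 50988 reads, or 0.656%, in the wild-type library. Their summed reads had a log2 ratio of heterozygous over wild type of 0.023 (95% counting interval 0.0013 to 0.046), an interval that held equal levels with DESeq2 scaling (-0.00053 to 0.044). The 7 beta tubulins summed to 20565 reads in the heterozygous library and 43984 in the wild-type library, a log2 ratio of 0.0039 (-0.020 to 0.028). The interval of the beta sum held equal levels with TMM, but lay above them with total-count scaling (0.034 to 0.082) and upper-quartile scaling (0.020 to 0.068). The 3 alpha tubulins summed to 3600 reads in the heterozygous library and 7004 in the wild-type library, a log2 ratio of 0.14 (0.082 to 0.20), or 1.10-fold. Total-count scaling in place of TMM would add 0.054 to every log2 ratio, which is more than the distance of the beta sum from equality.

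Tubulin isotypes cover a wide range of levels in this tissue, here given as the deposited RPKM, reads relative to gene length and library total, with 95% Poisson intervals. Tubb4a, the class IVa beta tubulin of brain and spinal cord, found in oligodendrocytes and neurons and mutated in a human hypomyelinating leukodystrophy, was the most abundant of the 10. It stood at 1435 RPKM (1408 to 1461) in the heterozygous library and 1421 RPKM (1403 to 1439) in the wild-type library, rank 13 and rank 14 among the 12530 genes. Tubb3, the neuronal class III isotype widely used as a neuron marker, followed with 563 RPKM (545 to 581) and rank 66 in the heterozygous library, against 541 RPKM (529 to 553) and rank 70 in the wild-type library. Tubb5, the widely expressed class I isotype, had 343 RPKM in the heterozygous library and 318 RPKM in the wild-type library. These 3 beta tubulins were therefore among the most strongly read genes in both libraries.

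The remaining beta tubulins were lower. Tubb2a, a class II isotype of neurons, had 198 RPKM (186 to 210) in the heterozygous library and 203 RPKM (196 to 211) in the wild-type library. Tubb4b, the broadly expressed class IVb isotype that is also a component of cilia, had 179 RPKM (168 to 191) in the heterozygous library and 127 RPKM (121 to 134) in the wild-type library. Tubb2b, the second class II isotype, prominent in the developing brain, had 28.8 RPKM in the heterozygous library and 40.9 RPKM in the wild-type library. Tubb6, a class V isotype that is a minor form in the nervous system, was the lowest, with 10.2 RPKM (7.82 to 13.0) in the heterozygous library and 3.07 RPKM (2.21 to 4.15) in the wild-type library. The median gene stood at 8.63 RPKM in the heterozygous library and 8.40 RPKM in the wild-type library, so Tubb6 was the only isotype below the median gene in either library, and only in the wild-type one.

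Among the alpha tubulins, Tuba4a led. This isotype differs from Tuba1a and Tuba1b in that its gene does not encode the terminal tyrosine that is otherwise removed and restored enzymatically. It had 276 RPKM (266 to 287) in the heterozygous library, against 245 RPKM (239 to 252) in the wild-type library. Tuba1a, the main alpha tubulin of developing neurons, had 102 RPKM (94.1 to 110) in the heterozygous library and 93.3 RPKM (88.4 to 98.5) in the wild-type library. Tuba1b, which is expressed in most tissues, had 31.6 RPKM (27.3 to 36.4) in the heterozygous library and 19.4 RPKM (17.2 to 21.9) in the wild-type library.

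**Figure D1:**
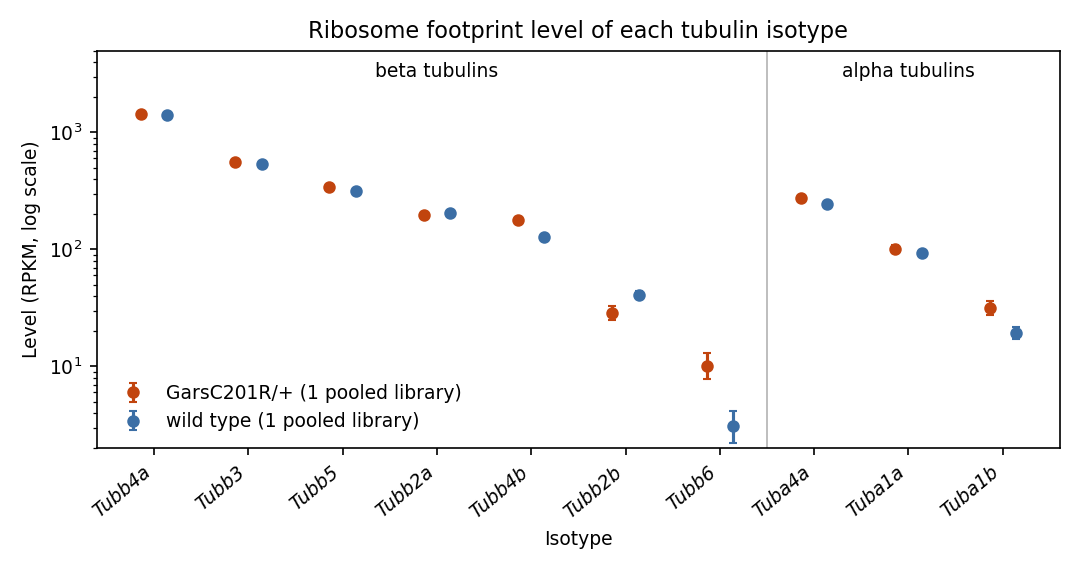
Level of each tubulin isotype in RPKM, on a log scale, in the GarsC201R/+ library (orange) and the wild-type library (blue), each a pool of 3 mice; bars are 95% Poisson intervals and cover counting error only. Tubb4a is highest at 1435 and 1421 RPKM, and the heterozygous and wild-type points stand clearly apart for Tubb6, Tuba1b, Tubb4b and Tubb2b.

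The order of the isotypes was close to the same in both libraries. Per length it ran Tubb4a, Tubb3, Tubb5, Tuba4a, Tubb2a, Tubb4b, Tuba1a, Tuba1b, Tubb2b and Tubb6 in the heterozygous library. In the wild-type library Tubb2b stood above Tuba1b, and the order was otherwise the same. In the heterozygous library 2 of the 9 neighbouring pairs had overlapping counting intervals, Tubb2a with Tubb4b and Tuba1b with Tubb2b, and in the wild-type library 0 of the 9 did. The range from the highest to the lowest isotype was 141-fold in the heterozygous library and 463-fold in the wild-type library, and the difference between these ranges came from Tubb6. Ordered by reads, the isotypes ran the same in both libraries, with Tubb2b above Tuba1b in each. The exchange of Tubb2b and Tuba1b thus appears only per length, with lengths of 2182 nt for Tubb2b and 1743 nt for Tuba1b.

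Alpha and beta tubulin form dimers in equal numbers, but the reads assigned to the listed genes were far from equal. The summed level of the 7 beta tubulins was 6.73 times that of the 3 alpha tubulins in the heterozygous library and 7.41 times in the wild-type library, in RPKM. In reads the ratio was 5.71 in the heterozygous library and 6.28 in the wild-type library. The list leaves out other alpha tubulin genes, and the part that reads matching several genes play in these ratios was not tested.

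Within the beta tubulins, Tubb4a, Tubb3 and Tubb5 held the largest shares in both libraries. Tubb4a made up 52.0% of the summed beta RPKM in the heterozygous library and 53.5% in the wild-type library, a difference of -1.47 percentage points. In reads, the odds of Tubb4a against the other beta tubulins had a heterozygous over wild-type ratio of 0.946 (0.915 to 0.978). Tubb3 made up 20.4% in each, and Tubb5 made up 12.4% in the heterozygous library and 11.99% in the wild-type library. The same ratio of odds was 1.01 (0.963 to 1.05) for Tubb3 and 1.05 (1.002 to 1.10) for Tubb5. The largest difference in share was that of Tubb4b, with 6.51% in the heterozygous library and 4.79% in the wild-type library, a difference of 1.71 percentage points. Tubb2a held 7.17% in the heterozygous library and 7.66% in the wild-type library. The minor forms were Tubb2b, with 1.04% in the heterozygous library against 1.54% in the wild-type library, and Tubb6, with 0.369% in the heterozygous library against 0.115% in the wild-type library. Within the alpha tubulins, with reads as assigned to each gene, Tuba4a made up 67.4% of the summed RPKM in the heterozygous library and 68.5% in the wild-type library. Tuba1a made up 24.9% in the heterozygous library and 26.1% in the wild-type library, and Tuba1b 7.72% in the heterozygous library and 5.43% in the wild-type library.

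**Figure D2:**
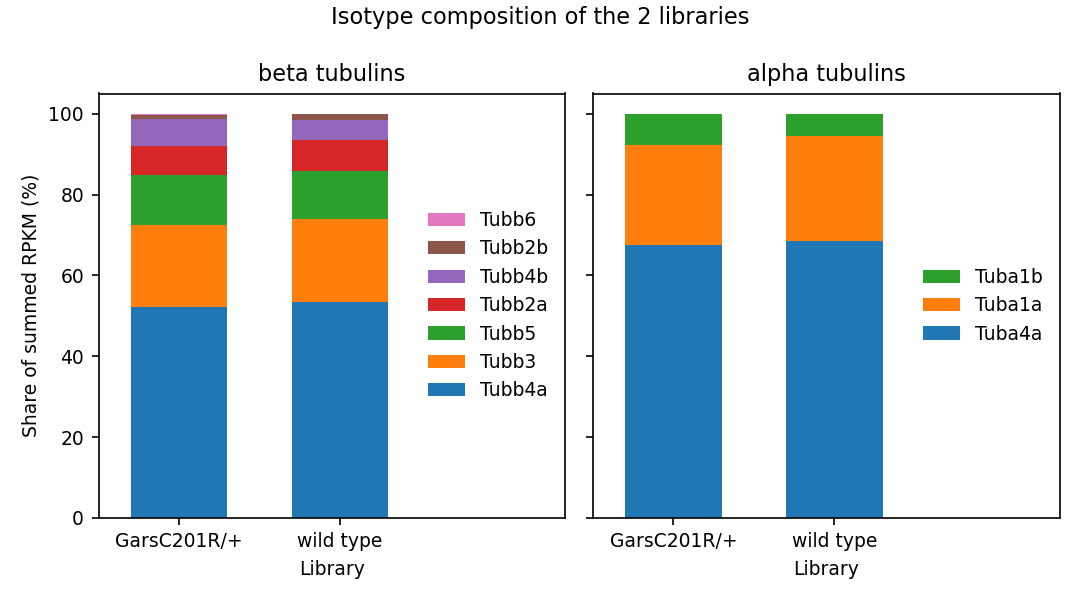
Share of each isotype in the summed RPKM of the 7 beta tubulins (left panel) and of the 3 alpha tubulins (right panel), in percent, with the GarsC201R/+ library left of the wild-type library in each panel. Tubb4a fills 52.0% and 53.5% of the beta bars, Tuba4a 67.4% and 68.5% of the alpha bars, and the largest difference in each panel is the wider band of Tubb4b (beta) and of Tuba1b (alpha) in the GarsC201R/+ library.

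Between the libraries, most isotypes were close to equal and 2 were higher in the heterozygous library. A call needed 100 or more reads over both libraries, a counting interval that excluded equal levels and a ratio of at least 1.5-fold. By this rule Tubb6 and Tuba1b were higher in the heterozygous library and 0 of the 10 isotypes were lower. Among all 9726 genes with 100 or more reads, 8.14% were called higher and 11.2% lower, or 19.3% in either direction. The balance over all genes depends on the scaling, since total-count scaling called 952 higher and 919 lower, against 792 and 1087 with TMM. The isotypes' share called in either direction, 2 of 10, is near the 19.3% of genes at large. Both calls were higher, where the share of all tested genes was 8.14%, and no set test was run. Of these 2, Tubb6 passed the read minimum through the library in which it was high. The 10 isotypes, all of which passed the read minimum, had log2 ratios with a median of 0.071, where the median of all 9726 genes was -0.034. At any fold, the interval lay above equal levels for 5 isotypes (Tubb6, Tuba1b, Tubb4b, Tuba4a and Tubb5) and below for 1 (Tubb2b), and it held equal levels for 4. Of all tested genes, the interval lay above equal levels for 23.7% and below for 28.2%, or excluded them for 51.9%. These counts of isotypes turn with small shifts of scaling, with 6 above and 1 below under total-count scaling, and 4 above and 2 below under DESeq2 scaling.

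Tubb6 had the largest ratio of the 10. Its reads were 63 (48.4 to 80.6) in the heterozygous library and 42 (30.3 to 56.8) in the wild-type library, although that library was the deeper one. The log2 ratio was 1.67 (1.10 to 2.28), or 3.18-fold, and 99.8% of the tested genes had a lower ratio. Its 105 reads in both libraries together are barely above the minimum of 100, and 63 of them came from the shallower heterozygous library. It passed the minimum through the library in which it was high. Its call and its place among the tested genes are therefore not independent of that filter. When the tested genes were ordered by reads and split into 10 equal groups, Tubb6 fell in the group with the fewest reads, where the robust SD of the log2 ratio was 0.68 and 37.7% of the genes were called. When the wild-type reads were thinned to the heterozygous depth, Tubb6 lay below the read minimum and was no longer tested, with a log2 ratio of 1.81.

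Tuba1b had 194 reads (168 to 223) in the heterozygous library and 264 reads (233 to 298) in the wild-type library. Its log2 ratio was 0.65 (0.38 to 0.93), or 1.57-fold, close to the 1.5-fold limit. In its own group of genes by reads, the sixth from the bottom, the robust SD was 0.42 and 14.6% of the genes were called. Its neighbour Tuba1a had 646 reads (597 to 698) in the heterozygous library and 1311 reads (1241 to 1384) in the wild-type library, a log2 ratio of 0.080 (-0.059 to 0.22). With the wild-type reads thinned to the heterozygous depth, Tuba1a had a log2 ratio of 0.18 (0.016 to 0.35), with an interval above equal levels. The thinning was a single random draw, and this interval leaves out the error of that draw. For every 100 reads of Tuba1a there were 30.0 reads of Tuba1b in the heterozygous library and 20.1 in the wild-type library, and the ratio of these proportions, which does not depend on the scaling of the libraries, was 1.49 (1.204 to 1.84). With the reads assigned to both genes summed, the log2 ratio was 0.19 (0.071 to 0.32), below the 1.5-fold limit.

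Tubb4b and Tubb2b differed in opposite directions by less than 1.5-fold. Tubb4b had 1009 reads (948 to 1073) in the heterozygous library and 1585 reads (1508 to 1665) in the wild-type library, a log2 ratio of 0.45 (0.33 to 0.56), or 1.37-fold. In the group of genes with the most reads, which holds Tubb4b, the robust SD was 0.32 and 7.71% of the genes were called. Against its class IV partner Tubb4a, Tubb4b had 8.97 reads per 100 in the heterozygous library and 6.43 per 100 in the wild-type library, a ratio of 1.40 (1.28 to 1.52). Summed, Tubb4a and Tubb4b had a log2 ratio of 0.0024 (-0.029 to 0.033), in which Tubb4a holds 11252 of the 12261 heterozygous and 24666 of the 26251 wild-type reads. Tubb2b had 221 reads (193 to 252) in the heterozygous library and 696 reads (645 to 750) in the wild-type library, a log2 ratio of -0.55 (-0.78 to -0.33), or 0.681-fold. With TMM it was the only isotype whose interval lay below equal levels, and 12.6% of all tested genes had a lower ratio. Against Tubb2a, Tubb2b had 19.7 reads per 100 in the heterozygous library and 27.3 per 100 in the wild-type library, a ratio of 0.723 (0.609 to 0.857). Summed, the class II genes Tubb2a and Tubb2b had a log2 ratio of -0.18 (-0.27 to -0.083).

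The isotypes with the most reads differed least. Tubb4a had 11252 reads (11045 to 11462) in the heterozygous library and 24666 (24359 to 24976) in the wild-type library, a log2 ratio of -0.032 (-0.064 to 0.00056) that became 0.022 with total-count scaling. Tubb3 had 3701 reads (3583 to 3822) in the heterozygous library and 7876 (7703 to 8052) in the wild-type library, a log2 ratio of 0.011 (-0.046 to 0.068). Both intervals held equal levels at TMM scaling.

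Tubb5 had 3199 reads in the heterozygous library and 6568 in the wild-type library, a log2 ratio of 0.063 (0.0014 to 0.12). Tubb2a had 1120 reads in the heterozygous library and 2551 in the wild-type library, a log2 ratio of -0.087 (-0.19 to 0.015). Tuba4a had 2760 reads in the heterozygous library and 5429 in the wild-type library, a log2 ratio of 0.12 (0.058 to 0.19). The neuronal isotype Tubb3 and the class I isotype Tubb5 thus lay within counting error of equality or next to it, and Tuba4a was 1.09-fold higher in the heterozygous library, far below the 1.5-fold limit.

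**Figure D3:**
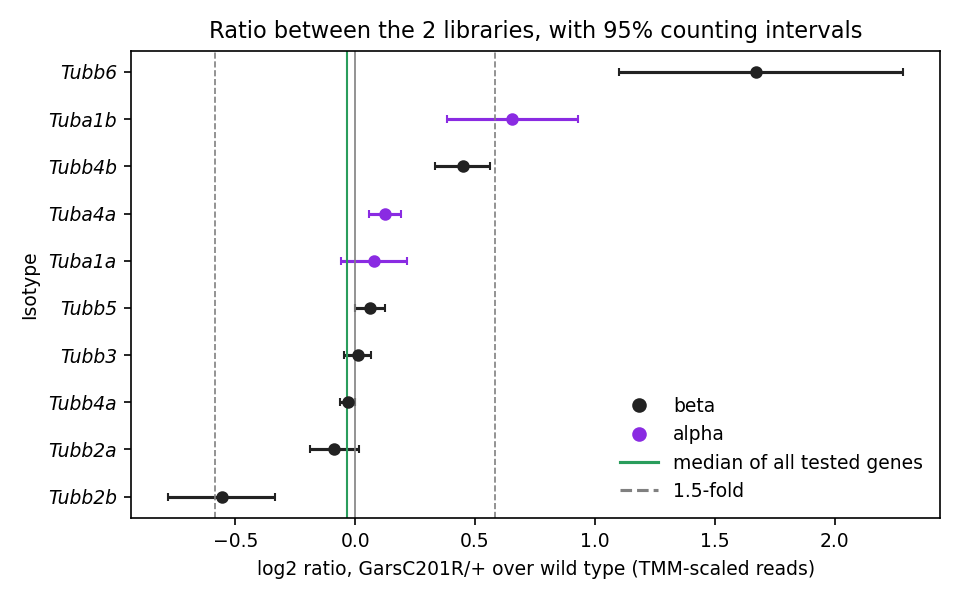
The log2 ratio of TMM-scaled reads, GarsC201R/+ over wild type, of each isotype (beta in black, alpha in purple), with 95% counting intervals; dashed lines mark 1.5-fold and the green line the median of all 9726 tested genes, -0.034. Tubb6 at 1.67 and Tuba1b at 0.65 lie beyond the upper dashed line, Tubb2b at -0.55 lies just inside the lower one, and the other isotypes lie between.

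For genes in general, the spread of the log2 ratio narrowed with read number, from a robust SD of 0.68 at the fewest reads. The 6 isotypes in the group with the most reads had log2 ratios from -0.087 to 0.45. The genes of that group had a median of -0.081, below that of all tested genes, and a robust SD of 0.32. The isotypes with fewer reads, Tubb6, Tuba1b, Tubb2b and Tuba1a, had log2 ratios between -0.55 and 1.67. The upper end is Tubb6, which passed the read minimum through the library in which it was high, and Tuba1b came next at 0.65. Whether the spread of the isotypes depends on read number was not tested.

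**Figure D4:**
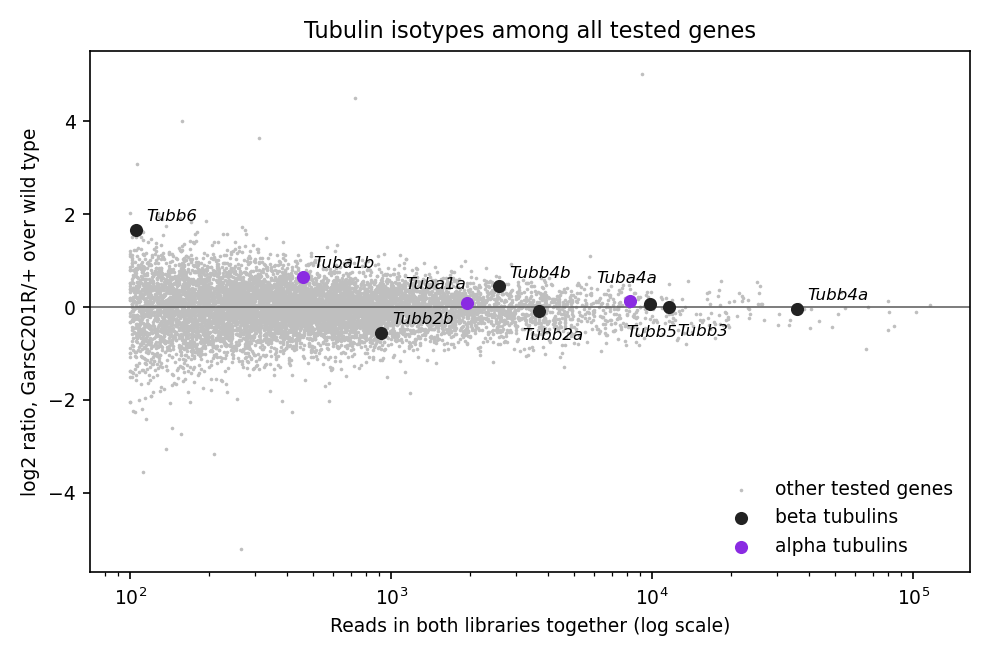
The log2 ratio, GarsC201R/+ over wild type, against the reads in both libraries together (log scale) for the tested genes, with other genes in grey, beta tubulins in black and alpha tubulins in purple; each point is 1 gene. The abundant isotypes from Tubb2a to Tubb4a lie near 0, and Tubb6, with 105 reads, lies at the left edge of the plot at 1.67.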

How the data were processed

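Ribosome-protected fragments of spinal cord were sequenced from 1 library per genotype, each from the pooled lysates of 3 mice, per the labels' protocols. Per the submitters' processing notes, Bowtie 1.2.2, HTSeq 0.9.1 and GRCm38 were used. The treatment of multiply mapped reads, the strand setting and the counted part of a gene are not stated there. The authors deposited a read count per gene, used as deposited. They also deposited an RPKM value per gene, with library totals of 3520348 reads (heterozygous) and 7790126 reads (wild type), recovered from the ratio of reads to RPKM, at which the length of each of the 12548 rows is whole within 1e-06 nt in both tables. No gene under 0.501 RPKM is listed for the heterozygous library, or under 0.183 RPKM for the wild-type library. The 18 ERCC spike-ins took no part in the scaling.

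Libraries were scaled with TMM over 12530 genes (edgeR 4.0.16, R 4.3.3). The log2 ratio used a prior count of 0.5, scaled to library size. Intervals of ratios are Clopper-Pearson, those of counts Poisson and those of paralog proportions and isotype odds conditional exact, all at 95%. They cover counting error only, and reads may not be independent molecules. The robust SD is the scaled median absolute deviation over 10 groups of tested genes ordered by reads. No model of genotype was fitted, because 1 library per genotype leaves 0 residual degrees of freedom. The members and lists were chosen with earlier results of these data known. All 10 members were to be named, and for other tubulin pathway lists the members called and up to 4 others each. Those lists, the cell type markers and protein features were not analysed here, because 0 identifiers were paired with symbols in the table of 49997 genes and no protein sequences were used. Alternatives were other scalings (total, DESeq2 1.42.0, upper quartile), leaving out genes above 1%, thinning, prior counts, read minimums, interval, fold limit, summed paralogs, summed RPKM, read shares and, added after seeing the data, a beta sum without Tubb4a. Thinning was a single random draw from the wild-type reads. Promoter sequences are RefSeq's (GRCm38.p6). Python 3.11.15 (numpy 2.4.6, pandas 2.3.3, scipy 1.17.1, matplotlib 3.10.9) did the rest.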

Additional observations from a re-analysis of the deposited data

Results flagged for a closer look

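The ERCC spike-ins, synthetic RNAs outside the mouse genes, held 22857 reads in the heterozygous library and 520 in the wild-type library, 94.3-fold more relative to the TMM-scaled gene reads, which drew attention as a signal in rows that the tubulin comparisons do not use. Scaling to them would shift every tubulin log2 ratio down by 6.56.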

How the results depend on the processing

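Tubb6 and Tuba1b were both called higher under total-count, DESeq2 and upper-quartile scaling, without the gene above 1%, with a minimum of 20 reads or none and with a 99% interval, and 0 isotypes were called lower under any alternative run. Thinning left 1 called higher (Tuba1b, with 9 isotypes tested), a 2-fold limit 1 (Tubb6), and a minimum of 500 reads 0, since neither gene was then among the 8 tested. The background counts were 1321 higher at 20 reads, 1379 with no minimum, 158 higher and 348 lower at 500 reads, and 166 and 267 at 2-fold. The summed log2 ratios of all 10 and of the beta tubulins were 0.077 and 0.058 with total-count scaling, 0.064 and 0.044 with upper-quartile scaling and 0.071 and 0.054 from the deposited RPKM. The beta sum without Tubb4a, chosen after seeing the data, was 0.048. The alpha sum lay between 0.14 and 0.19. In reads rather than RPKM, Tubb4a held 54.7% of the beta signal in the heterozygous library and 56.1% in the wild-type library, and Tuba4a held 76.7% and 77.5% of the alpha signal in the same libraries. Among the scalings, the ratio of Tubb4a changed sign (0.022 with total-count and 0.0084 with upper-quartile scaling) and Tubb3 had an interval above equal levels (0.0081 to 0.12) with total-count scaling. With DESeq2 scaling the interval of Tubb4a lay below equal levels and that of Tubb5 held them. The share per coding length was not run. No paired analysis was possible because there is 1 library per genotype, and no replicate could be left out.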
